A study of Mus musculus with 96 samples.

Results

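The genes of the cytosolic ribosome were examined across 7 mouse organs. Members were the rows named Rpl or Rps plus a number, with a closing a, l or x allowed, together with Rplp0, Rplp1, Rplp2, Rpsa, Rpl36al and Rpl22l1. Names marked -ps were left out. The rule found 85 of 56941 gene rows, 53 with Rpl names (large subunit) and 32 with Rps names (small subunit).

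The study profiled RNA from whole organs of mice aged 2 months. Its mice were of the reprogrammable strains 4Fj, 4FsB, 4Fk and 4FsA, which carry inducible reprogramming factors, and of WT controls. The 96 libraries came from spleen (7), heart (14), skeletal muscle (15), brain (15), liver (15), kidney (15) and small intestine (15). Spleen was labelled for WT, 4Fj and 4FsA mice only, and the other organs for all 5 genotypes. The columns of the count table name the organ and a running number but no genotype, so every organ's libraries mix genotypes that could not be assigned, and only organs were compared. The labels do not say which organs came from the same mouse or whether any mouse had been induced. P-values measure the spread between these libraries, which the main tests take as independent.

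Each ribosome joins a small subunit, which reads the messenger RNA, to a large subunit, which forms the peptide bond. Their proteins are needed in near equal numbers, and most are encoded by genes that are active in every cell. In vertebrates these genes typically start transcription within a run of pyrimidines, the 5′ terminal oligopyrimidine tract, through which growth signals control their translation. A few have paralogs, second copies whose protein can take the same place: Rpl3l, best known from heart and skeletal muscle, for Rpl3, Rps27l, a p53 target, for Rps27, Rpl22l1 for Rpl22 and Rpl36al for Rpl36a.

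Promoters from the RefSeq table of mouse build GRCm38.p6 were found for 63 of the 85 members and not for 22. The word CTTTCC, or else CTCTTT or CTTTTC, each a fragment of a pyrimidine tract, lay on the gene strand between 20 bases before and 20 after the annotated start in 18 of 63 members (28.6%), against 4.34% of all 27025 promoters. On the other strand the same words lay in 0 of 63 members and 3.87% of all promoters. CCGGAAG, an ETS-type word, lay on either strand of the 300-base window in 24 members (38.1%) and 9.14% of all promoters. AAGATGGC, a YY1-type word, lay there in 5 members (7.94%) and 2.87% of all. CAGCTG, an E-box type word, lay in 4 members (6.35%) and 16.1% of all, and Rpl3l was among the 4. TATAAA, the TATA word, was searched on the gene strand between 40 and 10 bases before the start and lay in 1 member (1.59%), Rpl22l1, and in 2.29% of all. The words searched at the start can overlap one another, and a promoter with more than 1 of them was counted once. A match describes the letters, not a bound site.
Windows of 60 bases around the annotated start are shown for Rps27l, Rpl22l1 and Rpl3l, paralogs found in the table, and for Rps27, the partner of Rps27l. They run 5′ to 3′ on the gene strand, and capitals mark a searched word: CTTTCC in Rps27, CCGGAAG in Rps27l, TATAAA in Rpl22l1 and CAGCTG in Rpl3l.
Rps27 (chr3:90213629-90213688, minus strand): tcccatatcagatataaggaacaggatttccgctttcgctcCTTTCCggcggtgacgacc
Rps27l (chr9:66946046-66946105, plus strand): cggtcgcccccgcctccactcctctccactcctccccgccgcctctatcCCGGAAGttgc
Rpl22l1 (chr3:28805468-28805527, plus strand): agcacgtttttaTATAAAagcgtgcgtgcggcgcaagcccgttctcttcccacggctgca
Rpl3l (chr17:24727779-24727838, plus strand): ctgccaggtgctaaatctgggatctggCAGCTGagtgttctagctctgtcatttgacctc

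Libraries held 6624474 to 17882603 estimated counts. The marker genes of kidney, liver, small intestine, heart, brain and skeletal muscle were present in all libraries of their own organ. Their summed level was lowest in small intestine library 12 (106 CPM, counts per 1e+06 counts), and spleen library 2 and skeletal muscle library 12 also held 3880 and 2660 CPM of liver markers. Mitochondrially encoded rows took 2.05 to 78.8% of a library, and 2 small intestine libraries exceeded 50%. By member share, spleen libraries 7, 8 and 9 and small intestine libraries 10, 11 and 12 stood apart from the rest of their organ. Several results are given with and without them, and some single-gene results with all libraries only.

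The members took the largest share of the RNA in spleen and the smallest in brain and heart. In spleen the 85 genes held 5.98, 6.81 and 13.5% of counts as lowest, median and highest (mean 9.17 ± 3.38%, SD, n = 7). Small intestine held 0.553, 2.31 and 8.76% (3.56 ± 2.85%, n = 15), and liver held 1.05, 2.61 and 5.55% (2.69 ± 1.35%, n = 15). These 2 organs had the widest relative spread among libraries. Kidney held 1.31, 1.92 and 2.92% (1.96 ± 0.396%, n = 15), and skeletal muscle held 1.15, 1.63 and 2.56% (1.72 ± 0.387%, n = 15). Heart held 1.07, 1.28 and 2.10% (1.39 ± 0.266%, n = 14), and brain held 0.814, 1.12 and 3.13% (1.54 ± 0.709%, n = 15). Kidney, muscle, heart and brain overlapped one another, and every spleen library lay above every library of these 4 organs and of liver. In whole organs, fewer cells of a type and less RNA per cell cannot be told apart.

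**Figure D1:**
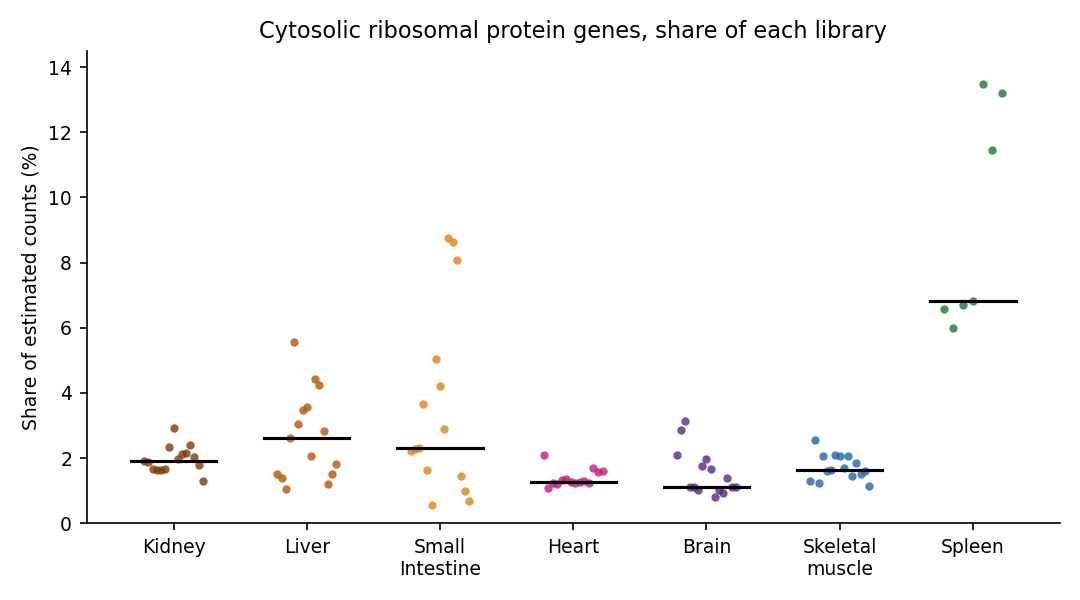
Share of each library's estimated counts in the 85 ribosomal protein genes (%, y axis) by organ (x axis), with 1 point per library and a bar at the median. Spleen spans 5.98 to 13.5% and overlaps only small intestine, which reaches 8.76%.

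Of the 21 pairs of organs, 14 differed in mean share at an adjusted p under 0.05 by two-sided permutation tests, exact for the 6 pairs with spleen and with 100000 resamples otherwise, adjusted by Benjamini-Hochberg over the 21. Spleen exceeded kidney, liver, brain and skeletal muscle at an exact adjusted p of 6.16e-05 each and heart at 7.22e-05. The exact adjusted p between spleen and small intestine was 0.00403, and 0.0797 without spleen libraries 7, 8 and 9. Below spleen, neighbours in the order of the means did not pass: the adjusted permutation p was 0.321 between liver and small intestine, 0.0675 between liver and kidney, 0.126 between kidney and muscle, 0.410 between muscle and brain and 0.461 between heart and brain. Kidney against small intestine (0.0547) and kidney against brain (0.0675) did not pass either. With mitochondrially encoded rows taken out of the total, kidney differed from small intestine (0.0221) and from brain (0.00785), whereas liver against muscle (0.0984) and heart against muscle (0.381) no longer passed. With totals scaled by the trimmed mean of M values (TMM), kidney differed from liver (0.00149), small intestine (0.00187), brain (0.00372) and muscle (0.00024) and brain from heart (0.00239) and muscle (8.40e-05). Kidney against heart passed on plain totals (0.00028) and not on these (0.863), nor did liver against muscle (0.680) or small intestine against muscle (0.714), all by permutation. Without small intestine libraries 10, 11 and 12, that organ no longer differed from brain (0.103) or muscle (0.159).

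The libraries that stood apart were 7, 8 and 9 of spleen, at 13.5, 11.4 and 13.2%, against 5.98 to 6.81% in the other 4. Their summed dividing-cell markers (Mki67, Top2a, Cdk1, Ccnb1, Bub1, Aurkb) were at 119 to 286 CPM, against 133 to 1088 CPM in the other 4, and these ranges overlapped. Small intestine libraries 10, 11 and 12 held 8.76, 8.64 and 8.07% of their counts in the members, against at most 5.03% in the other 12. Their dividing-cell markers were at 752 to 1026 CPM, against 5.15 to 461 CPM, and their enterocyte markers (Fabp2, Vil1, Apoa4, Lct) at 106 to 649 CPM, against 755 to 30597 CPM. Neither pair of ranges overlapped in small intestine. The part of these cells in the member share was not tested. Each set that stood apart has consecutive running numbers, and most groups of 1 organ and genotype are labelled with 3 samples. Whether such a set shares a genotype could not be checked, so genotype cannot be told apart from these differences.

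Within small intestine, the member share rose with the level of Myc, a transcription factor that activates ribosome genes and 1 of the reprogramming factors. The share and log2 Myc CPM, both with mitochondrial rows left out, were compared over the 12 libraries other than 10, 11 and 12. Pearson's r was 0.79 and Spearman's rho 0.88 (permutation p adjusted over 27 relations 0.00961 and 0.00209). Without the 2 libraries farthest from the median Myc level, r was 0.88. Myc was at 724 to 903 CPM in libraries 10, 11 and 12, against 2.32 to 374 CPM in the other 12. The same relation did not pass in liver (r = 0.53 and rho = 0.39, adjusted permutation p 0.106 and 0.264, n = 15) or heart (r = -0.60 and rho = -0.55, adjusted permutation p 0.0653 and 0.122, n = 14). Whether transgene RNA adds to the Myc row was not tested, and the genotype of each library is not known here.

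Gene by gene, most members moved with the family. Of the 85, 82 passed the filter on low counts, and 79 had a median of at least 5 CPM in every organ. Spleen had the highest median for 79 members. Liver had it for Rps27l, small intestine for Rps4l and muscle for Rpl3l. Brain had the lowest median for 41, heart for 33, muscle for 7 and liver for 1. The highest organ median exceeded the lowest 6.45-fold in the middle member. Once each library was set to its own mean log2(CPM + 1) over the members, 68 of 82 members varied by under 1 log2 unit between organ medians, with a median range of 0.70. Only Rpl3l (10.08), Rps4l (3.86), Rps27l (3.53) and Rpl3 (3.48) varied by 2 or more.

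A fit over all 20100 genes tested compared each organ with the mean of the other 6 (edgeR's quasi-likelihood test, libraries scaled by TMM). A gene was called at a Benjamini-Hochberg adjusted p under 0.05 and a change of at least 2-fold. In spleen 67 of 82 members were called higher, where 21.8% of all genes were, and 3 were lower, where 20.5% were. The higher members were 40 of 50 large subunit and 27 of 32 small subunit genes. The members' median log2 difference in spleen was 1.35, against -0.09 over all genes. Without spleen libraries 7, 8 and 9 the count higher was 19 and the median 0.83, so the count rests on those libraries and the direction does not. In brain 0 members were called higher (29.4% of all genes) and 68 lower (24.1%), 41 of 50 large subunit and 27 of 32 small subunit members. At an unadjusted p under 0.05 with no fold limit 0 members were higher in brain by edgeR, and DESeq2 called 0. Their median in brain was -1.37, against -0.03 over all genes.

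The other organs moved less, and in the main fit the share of members called lay below that of all genes in each, in both directions. In heart 1 member was higher (18% of all genes) and 12 lower (18.7%), with a median of -0.67, against -0.22 over all genes. In kidney 0 were higher (18.4%) and 10 lower (14%), with a median of -0.60 against -0.13. At an unadjusted edgeR p under 0.05 with no fold limit, 2 members were higher in kidney, and DESeq2 called 1. Without spleen among the other organs, 0 were lower in kidney and 4 in heart. In liver 7 were higher (18.8%) and 1 lower (21.5%), with a median of 0.58 against -0.11, and 36 were higher without spleen. In small intestine 5 were higher (22.2%) and 1 lower (19.7%), with a median of 0.45 against -0.08, and 14 were higher without spleen. Shares of all genes without spleen are not given here for these counts. The small intestine median was 0.21 without libraries 10, 11 and 12. In skeletal muscle 3 were higher (18.8%) and 2 lower (26.2%), with a median of 0.34 against -0.31, but -0.67 against -1.14 when libraries were scaled by their totals and -0.55 against -1.10 by totals without mitochondrial rows, so the sign in muscle depends on the scaling.

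Scaling by totals moved the median of all genes to between -1.14 (muscle) and 0.71 (spleen). Under both kinds of totals the members' median stayed above 0 in liver, small intestine and spleen and below 0 in kidney, heart and brain. In spleen it was 2.20 by totals, against 0.71 over all genes. In brain it was -0.81, against 0.46 over all genes, and 25 members were lower. The share of all genes lower in brain by totals is not given here.

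**Figure D2:**
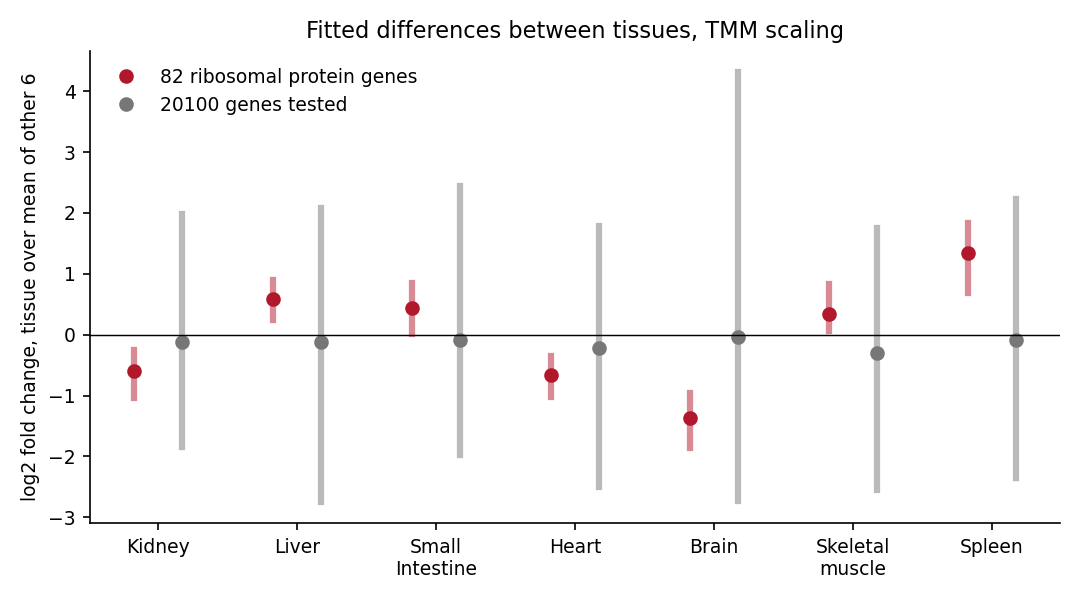
Fitted log2 difference, organ over the mean of the other 6 (y axis, TMM scaling), by organ (x axis). Points are medians over the 82 tested members and over all 20100 genes tested, and bars span their 10th to 90th percentiles. Members lie highest in spleen (median 1.35) and lowest in brain (-1.37), while the sign in muscle (0.34) turns to -0.67 with libraries scaled by totals.

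The largest called changes in spleen, beside Rpl3l, were those of 2 small subunit genes. Rps27, which encodes a zinc finger protein of the small subunit, had 497, 683 and 1983 CPM as lowest, median and highest in spleen, against organ medians of 72.7 to 140 CPM elsewhere. Its log2 difference was 2.19 (SE 0.254, edgeR adjusted p 1.83e-12). Rps15a, another small subunit gene, had 573, 708 and 1824 CPM in spleen, and a highest value of 521 CPM in small intestine, the nearest organ; its log2 difference was 2.13 (SE 0.203, edgeR adjusted p 2.94e-16). Rps15a in spleen overlapped no other organ, and Rps27 overlapped liver alone, where it reached 536 CPM. Without spleen libraries 7, 8 and 9 both stayed called, at 1.34 for Rps27 and 1.39 for Rps15a.

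Brain was lowest in the acidic stalk gene Rplp0, whose protein anchors the elongation factor binding stalk of the large subunit. Rplp0 had 120, 149 and 461 CPM in brain, against 419, 527 and 988 CPM in heart, 222, 855 and 3287 CPM in small intestine and 1593, 1939 and 3277 CPM in spleen. Its log2 difference in brain was -2.45 (SE 0.226, edgeR adjusted p 1.84e-17). Brain overlapped heart only at its upper end. Rplp1 and Rplp2, which pair on the same stalk, led the kidney calls at -1.14 (SE 0.231, edgeR adjusted p 1.62e-05) and -1.17 (SE 0.224, edgeR adjusted p 4.88e-06). Rplp2 had 81.1, 148 and 233 CPM in kidney, against 54.9, 73.8 and 167 CPM in brain and 675, 830 and 2811 CPM in spleen. Kidney thus lay between those organs, overlapping brain and not spleen. With libraries scaled by totals, with or without mitochondrial rows, or without spleen, 0 members were lower in kidney, and Rplp1, Rplp2 and Rps24 were below the 2-fold limit. Without spleen libraries 7, 8 and 9, Rplp2 stayed called at -1.01, and Rplp1 (-0.99) and Rps24 (-0.94) did not.

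Rps12, a small subunit gene, led the small intestine calls after the paralogs at 1.29 (SE 0.211, edgeR adjusted p 8.83e-08). It had 92.2, 512 and 2338 CPM in small intestine, against 914, 1004 and 3312 CPM in spleen, which it overlapped. Rps24 in kidney, the third gene there by size, differed by -1.09 (SE 0.235, edgeR adjusted p 4.27e-05). By the 31-base words of GENCODE M21 transcripts, 83.8% of Rps12 and a median of 46.6% of a member's words also occur in another gene. For 37 of 85 members the share exceeded 50%, and how the authors' counting split such reads is not known here, so levels of those members are uncertain.

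To see which members left the family, libraries were also scaled to the summed members. That scaling moved the median of all genes to between -1.41 (spleen) and 1.32 (brain), so it says nothing of the family's own level. Called higher and lower were 2 and 0 members in kidney (27.5 and 7.89% of all genes), 2 and 1 in liver (14.9 and 26.3%), 1 and 1 in small intestine (19 and 25.7%), 1 and 1 in heart (25.9 and 12%), 2 and 2 in brain (57.6 and 9.97%), 1 and 2 in skeletal muscle (13.7 and 33%) and 0 and 3 in spleen (9.05 and 51.7%). For the counts of 0, 16 members were lower in kidney and 22 higher in spleen at an unadjusted edgeR p under 0.05 with no fold limit. Shares of all genes at that limit are not given here. All members called belonged to 6 genes: Rpl3l, Rpl3, Rps27l, Rps4l, Rpl22l1 and Rplp0. Relative to the members, brain held more Rpl3 (1.65, SE 0.114, edgeR adjusted p 7.14e-25) and less Rplp0 (-1.12, SE 0.120, edgeR adjusted p 1.37e-14). Rps27 in spleen stood only 0.80 above the family there.

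**Figure D3:**
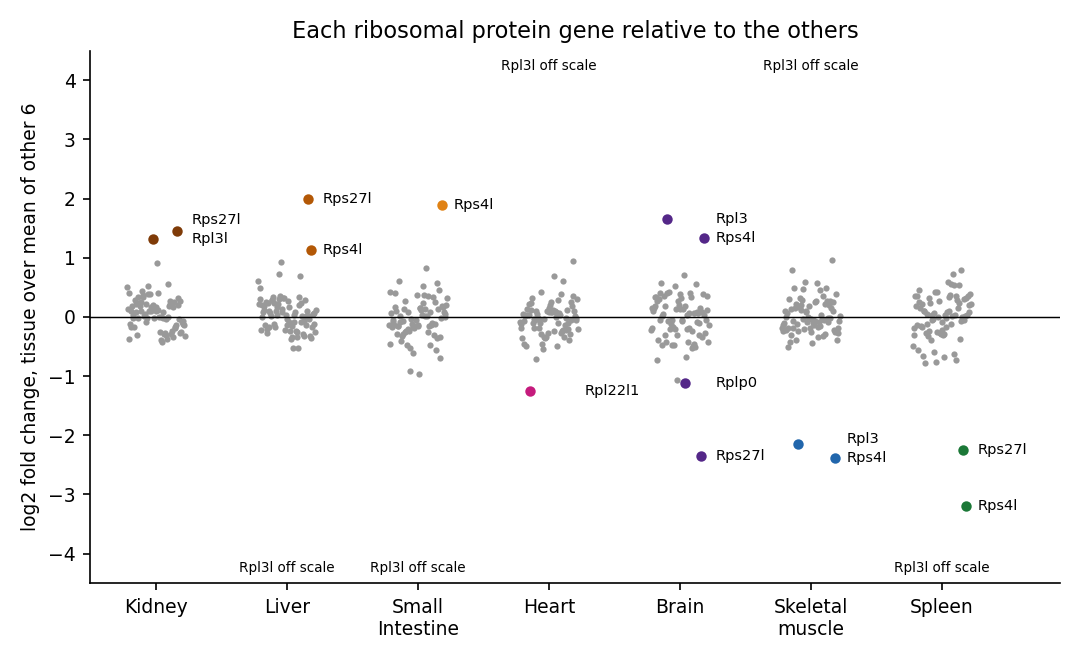
Fitted log2 difference of each member, organ over the mean of the other 6 (y axis), with libraries scaled to the summed members, by organ (x axis). Members called are named, with Rpl3l off the scale in 5 organs, and all of them are Rpl3l, Rpl3, Rps27l, Rps4l, Rpl22l1 or Rplp0.

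Rpl3l was abundant in 2 organs. It had 143, 206 and 250 CPM in heart and 227, 331 and 495 CPM in skeletal muscle. Elsewhere kidney had 0.607, 1.73 and 4.39 CPM and brain 0, 0.346 and 1.19 CPM. It was at 0 in 11 of 15 liver, 12 of 15 small intestine and 6 of 7 spleen libraries, where 3 counts would be 0.168 to 0.413 CPM. No heart or muscle library overlapped any other organ, and all kidney libraries had counts. Both organs were called higher (edgeR adjusted p 5.47e-61 in heart and 2.13e-67 in muscle), and no fold is given because so many libraries of the other organs were at 0.

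Rpl3, the partner, ran the other way. It had 93.1, 117 and 211 CPM in heart and 36.9, 53.8 and 175 CPM in muscle, against 134, 388 and 512 CPM in kidney, 302, 494 and 1039 CPM in brain, 69.8, 448 and 1704 CPM in small intestine, 90.5, 346 and 913 CPM in liver and 1241, 1397 and 1880 CPM in spleen. Its log2 difference was -1.31 in heart (SE 0.208, edgeR adjusted p 4.89e-08) and -1.82 in muscle (SE 0.210, edgeR adjusted p 9.51e-13). Rpl3 took a median of 0.924% of the member counts in heart and 0.339% in muscle. The medians were 1.67 to 2.00% in kidney, liver, small intestine and spleen and 3.71% in brain. Brain was the high end of that order without a called change in Rpl3 itself (0.29, SE 0.178, edgeR adjusted p 0.143). Heart (0.760 to 1.34%) overlapped kidney (from 1.02%), liver (from 0.606%), small intestine (from 1.14%) and spleen (from 1.08%). Muscle (0.226 to 0.944%) overlapped heart and liver. With libraries scaled to the members, Rpl3 was not called in heart.

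Divided by transcript length (1375 bases for Rpl3l and 1351 for Rpl3 in GENCODE M21), Rpl3l made up 45.7, 65.4 and 70.1% of the sum of both in heart and 60.8, 84.3 and 92.3% in muscle. In raw counts its share was at most 1.66% in kidney, 0.201% in brain, 0.261% in liver, 0.0156% in small intestine and 0.0111% in spleen. The transcripts of Rpl3l and Rpl3 share 0% of their 31-base words, though 87.6% of the words of Rpl3 occur in other genes. The Rpl3l ranges of heart and muscle overlapped between 227 and 250 CPM. Across libraries Rpl3l and Rpl3 showed no relation that passed, in muscle (r = -0.57 and rho = -0.47, adjusted permutation p 0.0695 and 0.175, n = 15) or in heart (r = -0.22 and rho = -0.09, adjusted permutation p 0.485 and 0.779, n = 14). Muscle library 12, which held 2660 CPM of liver markers, gave the lowest Rpl3l share of the organ, and Rpl3 took 0.944% of its member counts. Whether the liver markers and these shares are linked was not tested. Of the skeletal muscle markers in heart, Ckm was at 1224 to 2456 CPM and Acta1 at 36.0 to 1317 CPM, and heart muscle also expresses both. The fast myosin genes Myh4 and Myh1 were each at 0 in 12 of 14 heart libraries and reached at most 0.0734 and 0.226 CPM.

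**Figure D4:**
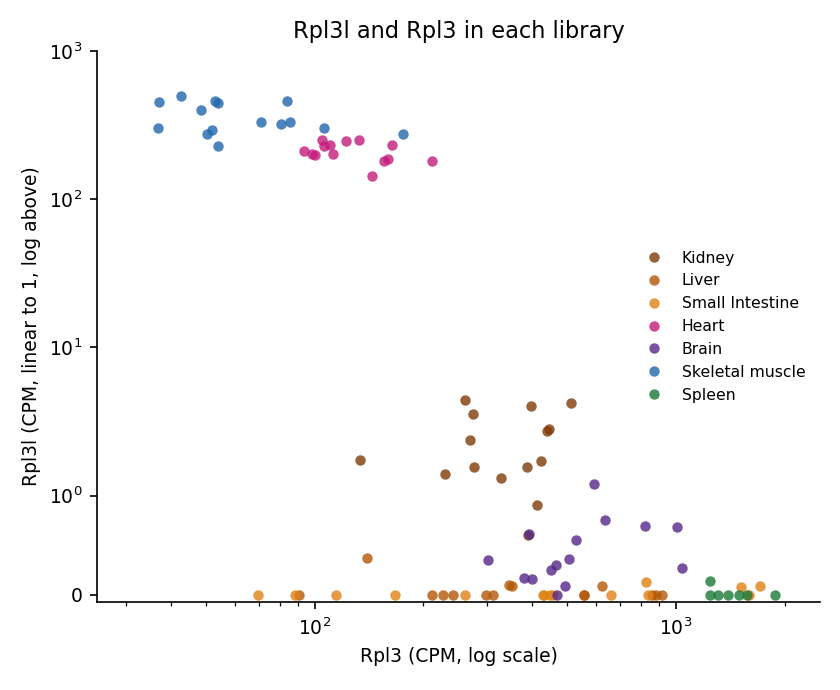
Rpl3l (y axis, CPM, linear to 1 and log above) against Rpl3 (x axis, CPM, log scale), with 1 point per library and a colour per organ. Heart (143 to 250 CPM Rpl3l) and muscle (227 to 495 CPM) lie at the upper left, and no other organ exceeds 4.39 CPM Rpl3l.

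Rps27l followed an order of organs unlike the family's. It had 76.3, 156 and 348 CPM in liver, 70.6, 91.9 and 164 CPM in kidney and 7.73, 75.9 and 152 CPM in small intestine. Muscle had 43.6, 70.0 and 114 CPM, spleen 34.2, 49.5 and 57.0 CPM and heart 16.5, 24.7 and 47.5 CPM. Brain was lowest with 3.38, 5.78 and 27.5 CPM. Neighbours in this order overlapped, and liver and brain did not. The log2 difference was 2.52 in liver (SE 0.165, edgeR adjusted p 9.87e-26) and -3.50 in brain (SE 0.252, edgeR adjusted p 1.25e-23). The call in spleen (-1.004, SE 0.294, edgeR adjusted p 0.00238) sat at the 2-fold limit and was -0.16 with libraries scaled by totals. The call in muscle (1.38) came with mean CPM of 67.0 in muscle, against 74.2 over the other organs, and the log2 difference was 0.39 with libraries scaled by totals.

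The count ratio of Rps27l to Rps27 removes the library scale and is compared between organs only, since it is not per length. Its median was 1.26 in liver (0.566 to 2.45), 0.959 in kidney (0.508 to 1.20), 0.566 in small intestine (0.136 to 1.12), 0.534 in muscle (0.187 to 0.936), 0.329 in heart (0.186 to 0.395), 0.0961 in brain (0.0578 to 0.146) and 0.0501 in spleen (0.0287 to 0.114). Liver and kidney lay above heart, brain and spleen in every library, and brain and spleen overlapped. In 14 heart libraries Rps27l ran opposite to Cdkn1a, a p53 target that brakes the cell cycle (r = -0.70, rho = -0.71, permutation p adjusted over 27 relations 0.0262 and 0.0203). The r was -0.59 without the 2 libraries farthest from the median Cdkn1a level. With CPM over all counts the relation no longer passed (r = -0.63). Over all libraries of each organ, the relation did not pass in kidney (r = -0.36), liver (-0.24), small intestine (-0.27), brain (-0.51), muscle (-0.33) or spleen (-0.66). In small intestine it depended on the libraries used. Without the 2 libraries highest in mitochondrial counts, r and rho were both -0.80 (adjusted permutation p 0.00778 and 0.00594, n = 13). Without libraries 10, 11 and 12, they were 0.05 and -0.10 (n = 12).

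Rpl22l1, the paralog of Rpl22, was lowest in heart. It had 9.76, 14.4 and 19.3 CPM in heart, against 24.4, 37.8 and 49.9 CPM in kidney, 23.7, 38.5 and 139 CPM in brain, 22.6, 64.1 and 276 CPM in small intestine, 26.8, 64.4 and 118 CPM in muscle, 15.4, 67.0 and 196 CPM in liver and 72.6, 103 and 255 CPM in spleen. Heart overlapped liver alone. Its log2 difference in heart was -1.99 (SE 0.282, edgeR adjusted p 2.00e-09) and -1.25 relative to the members (SE 0.143, edgeR adjusted p 9.55e-13). The ratio to Rpl22 had a median of 0.148 in heart (0.110 to 0.212), against 0.258 in kidney, 0.259 in spleen (0.235 to 0.343), 0.493 in brain, 0.502 in muscle, 0.527 in liver and 0.576 in small intestine. Spleen was thus highest in Rpl22l1 level and among the low organs in the ratio, as Rpl22 had 310, 377 and 902 CPM there.

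In 4 organs Rpl22l1 rose with Rpl22. Most members moved together, and whether this relation is particular to the pair was not tested. Levels were log2 CPM with mitochondrial rows left out of the total. In liver r and rho were 0.93 and 0.97 (permutation p adjusted over 27 relations 9.00e-05 and 0.000135). They were 0.91 and 0.81 in brain (9.00e-05 and 0.00238, permutation) and 0.89 and 0.86 in muscle (0.000135 and 0.000675, permutation), with n = 15 each. In small intestine they were 0.87 and 0.90 over 12 libraries (0.000675 and 0.00126, permutation), libraries 10, 11 and 12 left out. Without the 2 libraries farthest from the median Rpl22 level, r was 0.89 in liver, 0.81 in brain, 0.83 in muscle and 0.78 in small intestine. With CPM over all counts, r and rho in muscle fell to 0.75 and 0.68 (adjusted permutation p 0.0125 and 0.0276). There r was 0.62 without the 2 farthest libraries. The relation did not pass in kidney (0.65 and 0.60, adjusted permutation p 0.0269 and 0.0617, n = 15) or heart (0.45 and 0.50, adjusted permutation p 0.188 and 0.173, n = 14), and was not tested in spleen, whose libraries fell into separate clusters. By 31-base words 64.4% of Rpl22l1 occurs in other genes, and 0% in Rpl22.

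The ratio of Rpl36al to Rpl36a, alternative forms of a large subunit protein, was lowest in spleen. Its median was 0.499 in spleen (0.418 to 0.757), 0.907 in brain (0.730 to 1.05), 0.979 in small intestine (0.661 to 1.54), 1.06 in heart, 1.23 in kidney, 1.48 in liver (0.978 to 2.13) and 1.66 in muscle (1.26 to 3.20). Spleen overlapped brain and small intestine at its upper end. In spleen Rpl36a was called higher by 1.84 (SE 0.228, edgeR adjusted p 2.62e-11), while Rpl36al differed by 0.60 (SE 0.230, edgeR adjusted p 0.0208), under the 2-fold limit.

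**Figure D5:**
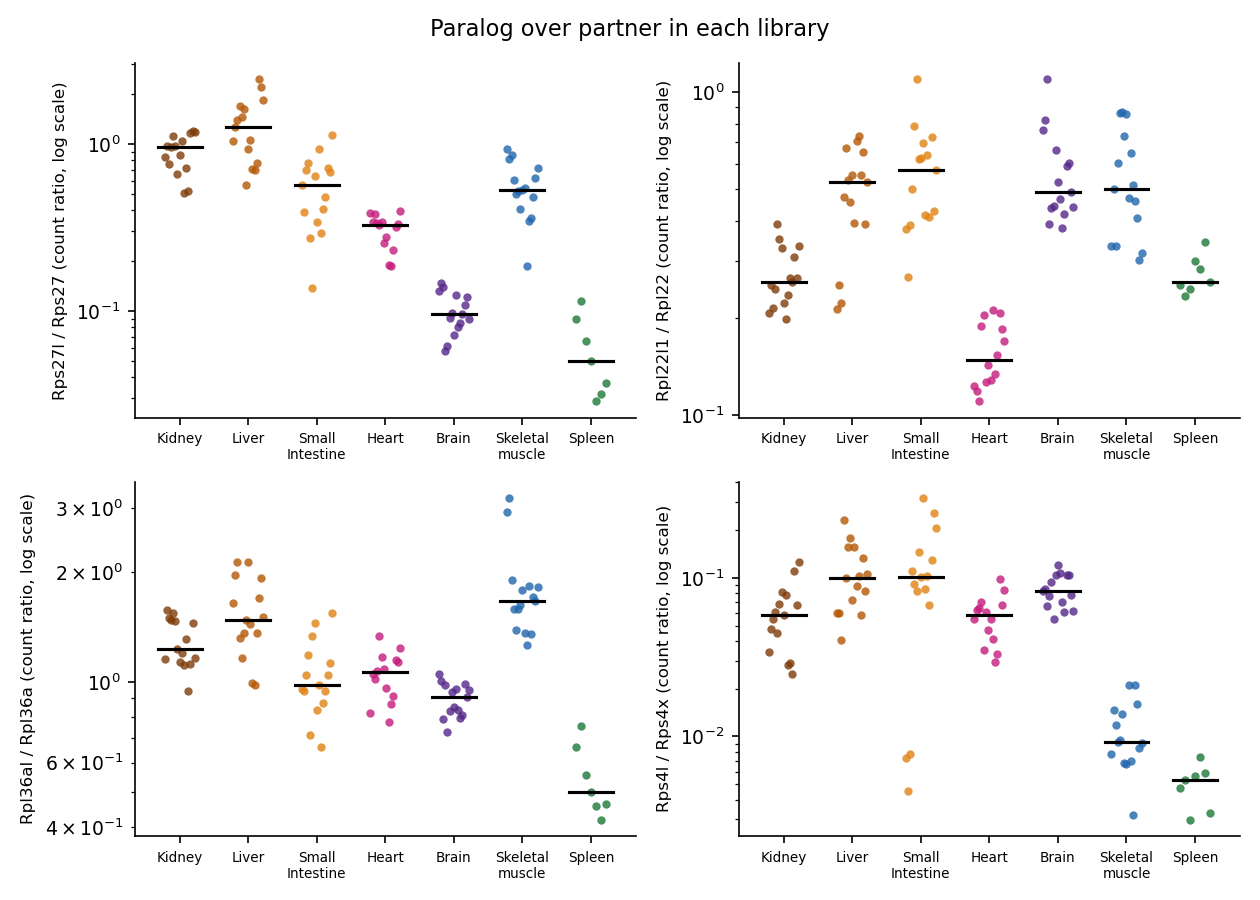
Count ratio of each paralog to its partner (y axes, log scale) by organ (x axes), with 1 point per library and a bar at the median. Rps27l over Rps27 is highest in liver (median 1.26), Rpl22l1 over Rpl22 lowest in heart (0.148) and Rpl36al over Rpl36a lowest in spleen (0.499). For Rps4l over Rps4x, 3 small intestine libraries lie at 0.00456 to 0.00771, apart from the other 12.

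Rps4l, which GENCODE M21 annotates as a transcribed processed pseudogene, had 2.32, 41.0 and 175 CPM in small intestine, 7.41, 25.7 and 70.8 CPM in liver, 4.84, 7.66 and 13.7 CPM in spleen and 0.760, 1.96 and 6.45 CPM in skeletal muscle. Its median ratio to Rps4x, the X-linked small subunit gene, was 0.101 in small intestine, 0.0995 in liver and 0.0832 in brain. The ratio was 0.0582 in heart and 0.0580 in kidney, against 0.00925 in muscle and 0.00529 in spleen. In small intestine the ratio was 0.00456 to 0.00771 in libraries 1, 2 and 3 and at least 0.0678 in the other 12, with no value between. Whether libraries 1, 2 and 3 share a genotype could not be checked. The log2 difference of Rps4l was 2.33 in small intestine (SE 0.219, edgeR adjusted p 8.90e-17), -2.05 in muscle (SE 0.302, edgeR adjusted p 4.89e-09) and -1.90 in spleen (SE 0.419, edgeR adjusted p 5.92e-05). Of the 31-base words of Rps4l, 0.876% occur in Rps4x.

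Some members were scarce everywhere. Rpl10l, a retrotransposed copy of Rpl10 known from testis, reached 2.50 CPM in a spleen library and had a median of 0 CPM in every organ. Rpl39l, known from male germ cells, had organ medians of at most 0.364 CPM. Rpl32l, annotated as a processed pseudogene, had medians of at most 0.236 CPM. These 3 did not pass the filter on low counts and were not tested. Rpl6l, also a processed pseudogene, had a median of 5.87 CPM in spleen and 1.00 to 2.64 CPM elsewhere. With Rpl3l, Rps4l, Rpl29 and Rpl38 it was 1 of the 5 members that varied most within organs relative to the family, by an SD of 0.42 to 0.61 log2 units averaged over organs.

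Among ribosomal genes outside the naming rule, Rack1, a scaffold protein of the small subunit, differed by 1.20 in spleen (SE 0.208, edgeR adjusted p 5.64e-07) and by -1.78 in brain (SE 0.194, edgeR adjusted p 4.32e-14). Mitochondrial ribosomal protein genes, which serve the separate ribosomes inside mitochondria, were called lower in spleen for 20 of 75 (20.5% of all genes) and in brain for 24 of 75 (24.1%), with medians of -0.80 and -0.76, counts not far from those shares. In muscle 28 of 75 were higher (18.8% of all genes), with a median of 0.89. By totals the medians of this list were 0.03 in spleen, -0.23 in brain and -0.06 in muscle, so its sign in spleen and muscle depends on the scaling.

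Eef1a1 and Eef1a2 encode alternative forms of the elongation factor that brings transfer RNA to the ribosome. They are the only ones described here of the 16 translation factors listed. Eef1a2 had 803, 1740 and 2082 CPM in heart, 819, 1212 and 1663 CPM in brain and 1145, 1779 and 3190 CPM in muscle, and at most 45.0 CPM in any other organ. Eef1a1 differed by -1.39 in heart (SE 0.195, edgeR adjusted p 1.44e-09) and by -2.03 in muscle (SE 0.199, edgeR adjusted p 7.56e-16). In brain, also high in Eef1a2, Eef1a1 differed by -0.47 (SE 0.176, edgeR adjusted p 0.0127), under the 2-fold limit. With libraries scaled to the members, Eef1a1 was at -0.82 in heart, under that limit, -2.37 in muscle and 0.83 in brain.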

How the data were processed

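RNA-seq was measured in 96 libraries of 7 mouse organs. The deposited table holds estimated counts per gene, made by the authors with build GRCm39, per the submitters' processing notes, which also name DESeq2. No source used here names the aligner, counter, annotation or strand setting. Of the values above 0, 26.8% were not whole (tolerance 1e-06), so they were rounded to whole numbers for the tests. Counts over the ribosomal genes outside the naming rule and the summed spleen markers are not reported here. A second deposited table of normalised values was not used.

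CPM is the estimated count over the library's sum times 1e+06. For relations within an organ, mitochondrially encoded rows were left out of that sum unless CPM over all counts is named. Rows that pair no gene name took at most 0.113% of a library. Organs were compared with edgeR 4.0.16 in R 4.3.3 (quasi-likelihood test, TMM, filterByExpr by organ, Benjamini-Hochberg over 20100 genes) in 1 fit, each organ minus the mean of the other 6. A call needed an adjusted p under 0.05 and a 2-fold change. Shares and relations were tested by permutation (Python 3.11.15, numpy 2.4.6, pandas 2.3.3, scipy 1.17.1), and figures were drawn with matplotlib 3.10.9. The scripts were tested on simulated data.

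In 1 library, 3 counts equal 0.168 to 0.453 CPM. This limit covers counting error only. Of 637 library pairs within an organ, 0 were identical.

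Named genes were the paralogs with their partners, the 3 called members with the largest change in each organ and the 5 with the largest spread within organs. The other values named were chosen after they were seen. The members and lists were chosen with earlier results of these data known. Alternatives changed the scaling, the test (DESeq2 1.42.0), the filter, the call rule and the libraries used. Shares of all genes called are given only for the main fit and for libraries scaled to the members. Leaving out 3 spleen or 3 small intestine libraries that stood apart, and taking the column number as a block, were chosen after seeing the data. Gene models and 31-base words came from GENCODE M21 and promoters from RefSeq, both on GRCm38, so no position of the authors' build is given.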

Additional observations from a re-analysis of the deposited data

Results flagged for a closer look

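Of 21 sets of 7 spleen values tested for a single distant library, 1 stood out, and chance alone flags about 1 in 20 such sets. Rps4l was at 13.7 CPM in spleen library 7, against 8.49 CPM in the next highest spleen library. The gap came to 0.588 of the whole range, over the 95% limit for 7 values. Library 7 was also 1 of the 3 spleen libraries with a high member share, and its ratio of Rps4l to Rps4x was 0.00746.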

How the results depend on the processing

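The columns of the organs share running numbers, which no label ties to a mouse. Over 261 pairs of same-numbered libraries of different organs, the correlation across 13269 genes of deviations from the organ mean had a median of 0.14 (lowest -0.24, highest 0.55) and exceeded 0.1 in 153, against a median of -0.018 over 3662 pairs with different numbers. A library correlated best with its own number in 108 of 522 comparisons with another organ. Same-numbered libraries were thus more alike in the median, though not every pair exceeded 0.1. The numbers were not taken to pair the libraries. The main fit and the permutation tests treat all libraries as independent, which these values do not establish, so their p-values are uncertain to that extent. With the number as a replicate block, added after seeing the data, 4 members were lower in kidney, 3 higher in small intestine and 4 lower in heart, 57 were higher in spleen and 62 lower in brain, and 51 of 62 single-gene calls stayed. The cause of each shift was not tested.

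Member shares moved with the denominator. Without mitochondrially encoded rows the median was 2.40% in kidney, 1.84% in heart and 2.22% in muscle. With TMM-scaled totals it was 1.50% in kidney and 2.87% in muscle. Of the 21 organ pairs, 14 differed, 14 without mitochondrial rows, 17 with TMM-scaled totals and 15 without the 2 small intestine libraries over 50% mitochondrial counts.

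Counts of called members moved by over 1.5 times as follows. For most of these settings the share of all genes called is not given here. The counts show how calls moved, not how members compare with all genes. With library totals only, 2 were higher and 0 lower in kidney, 2 higher in liver, 42 lower in heart, 25 lower in brain, and 1 higher and 7 lower in muscle. With totals without mitochondrial rows, 2 were higher and 0 lower in kidney, 2 higher in liver, 8 higher in small intestine, 40 lower in brain and 1 higher in muscle. With libraries scaled to the members, 2 were higher and 0 lower in kidney, 2 higher in liver, 1 higher in small intestine, 1 lower in heart, 2 higher and 2 lower in brain, 1 higher in muscle and 0 higher in spleen. With DESeq2, 1 was higher in kidney. With adjusted p alone, 2 were higher and 59 lower in kidney, 57 higher in liver, 46 higher in small intestine, 70 lower in heart and 34 higher in muscle. Without the filter on low counts, 13 were higher in small intestine and 5 in muscle. Without spleen, 0 were lower in kidney, 36 higher in liver, 14 higher in small intestine, 4 lower in heart and 8 higher in muscle. Without the 2 small intestine libraries, 6 were lower in kidney and 5 higher in muscle. Without spleen libraries 7, 8 and 9, 1 was higher and 2 lower in kidney, 0 lower in liver, 0 lower in small intestine, 6 lower in heart, 7 higher in muscle and 19 higher in spleen. Without small intestine libraries 10, 11 and 12, 17 were higher in liver, and 3 higher and 2 lower in small intestine.

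Among single genes, changes of sign occurred only with libraries scaled to the members. They were Rpl22 (-0.17), Rpl29 (-0.24), Rpl38 (-0.0072) and Rplp0 (-0.025) in spleen, and Rpl38 (0.13), Rpl6l (0.32), Rplp1 (0.19), Rps15a (0.34) and Rps4x (0.041) in brain. Of the 62 single-gene calls fitted, DESeq2 and the relative log expression scaling each kept 57 and lost 5. Library totals kept 42 and lost 20, and totals without mitochondrial rows kept 45 and lost 17. Leaving out the 3 spleen libraries that stood apart kept 44 and lost 18. Scaling to the members kept 15, lost 38 and changed the sign of 9. With all spleen libraries left out, 34 of the calls that could still be fitted were kept and 11 were lost. Dropping the filter on low counts kept 61 and lost 1. Members were called from as few as 7 spleen libraries, and depth limits Rpl10l, Rpl32l and Rpl39l, which were not tested.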

Other observations

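Near copies outside the naming rule, chosen after their values were seen, were also highest in spleen. Rps12l1 had a median of 14.3 CPM in spleen (0 to 39.1 CPM, with 1 of 7 libraries at 0), against a median of 0 CPM in every other organ, where it reached 46.9 CPM in a small intestine library. Rpl37rt had 21.1, 24.7 and 45.9 CPM as lowest, median and highest in spleen, against organ medians of 5.59 to 8.94 CPM elsewhere.

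Rows with -ps names, left out of the members, took at most 0.181% of a library and reached 7.71% of the count of their parent for Rpl9.

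Among liver libraries the member share spanned 1.05 to 5.55%, and Myc spanned 1.99 to 866 CPM. The liver library with the highest share held 144 CPM of Myc.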
